A study of Mus musculus with 12 samples.

Results

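Transcript levels were followed for 10 genes of ADP-ribosylation in B16F10 cells, a mouse melanoma line: Parp1, Parp2, Parp3, Parp9, Parp10, Parp11, Parp12, Parp14 and Parp16, and Dtx3l, the ubiquitin ligase that partners Parp9. They were taken by gene name from the 2 deposited tables of normalized read counts. Each name matched 1 of the 55421 genes listed, and all 10 were among the 14721 genes tested. RNA sequencing had been done on 12 libraries in 4 groups of 3. Vector control cells (VC) and cells carrying a CRISPR-Cas9 knockout of Bub1 (Bub1KO), a mitotic checkpoint kinase gene, were each sequenced without treatment and after 8 Gy of radiation. The time between irradiation and lysis, the guide and the number of knockout lines are not stated in the labels. Nor do the labels say that libraries came from separate cultures, so p-values measure the spread between these libraries, which may be technical.

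PARP enzymes move ADP-ribose from NAD+ onto proteins. Parp1 and Parp2 are switched on by broken DNA and build chains of it, and Parp3 also answers DNA breaks but adds single units. Parp9, Parp10, Parp11, Parp12 and Parp14 add single units or have little activity of their own, and in many cell types their genes are induced by interferon, as is Dtx3l. Parp16 sits in the membrane of the endoplasmic reticulum and takes part in its stress response.

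Library depth ran from 19380726 to 33087366 reads in genes. Bub1 itself was lowered rather than absent. It had 2752, 3185 and 2859 normalized counts in untreated VC, against 1834, 1565 and 1588 in untreated Bub1KO, a log2 difference of -0.82 (SE 0.101, limma adjusted p = 0.0030). Log2 differences are between group means of log2(normalized count + 1), and a gene passed the test at an adjusted p under 0.05 over all genes. After 8 Gy the log2 difference was -0.58 (SE 0.0797, limma adjusted p = 0.00019). All 8 melanocyte markers were present in every group. Their summed normalized counts per library were 400055 to 416932 in untreated VC and 556397 to 565188 in untreated Bub1KO. After 8 Gy they were 452698 to 468768 in VC and 574790 to 599698 in Bub1KO. Bub1KO was thus the higher genotype under both treatments, and Tyr and Dct passed the test as higher in Bub1KO in both. Replicate 1 of untreated Bub1KO stood apart. Each library's log2 difference from the other 2 of its group was compared between tested genes of at least 55.7% GC and those of at most 45.0% GC. The gap in medians was -0.79 in that library and -0.22 to 0.44 in the other 11. Differences of the members that rest on it are therefore given with and without it.

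After 8 Gy, 5 of the 6 interferon-linked members rose in each genotype, and Parp1, Parp2 and Parp16 fell in both. Over all genes tested, 53.4% passed in VC, 27.6% as higher and 25.8% as lower, and 49.4% in Bub1KO, 25.4% as higher and 23.9% as lower. In VC, Parp14, Parp10, Parp9, Parp12 and Parp11 rose, as did the DNA-break enzyme Parp3. In Bub1KO, Parp3 rose again, and Dtx3l passed in place of Parp11. After 8 Gy, Parp14, Parp9, Dtx3l, Parp12 and Parp10 were 1.47 to 1.80 times as high in Bub1KO as in VC by their means, where 14.3% of all genes passed as higher. Without radiation no member passed the limma test between the genotypes, where 4.01% of all genes passed. DESeq2 called Parp9, Parp2 and Parp11 as higher in Bub1KO there. The authors' deposited test called the same genes with the same log2 differences and SE, so its calls are not separate support. No member passed the limma test of whether the genotype difference changed with radiation. In bulk RNA, fewer cells of a kind and less transcript per cell cannot be told apart.

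**Figure D1:**
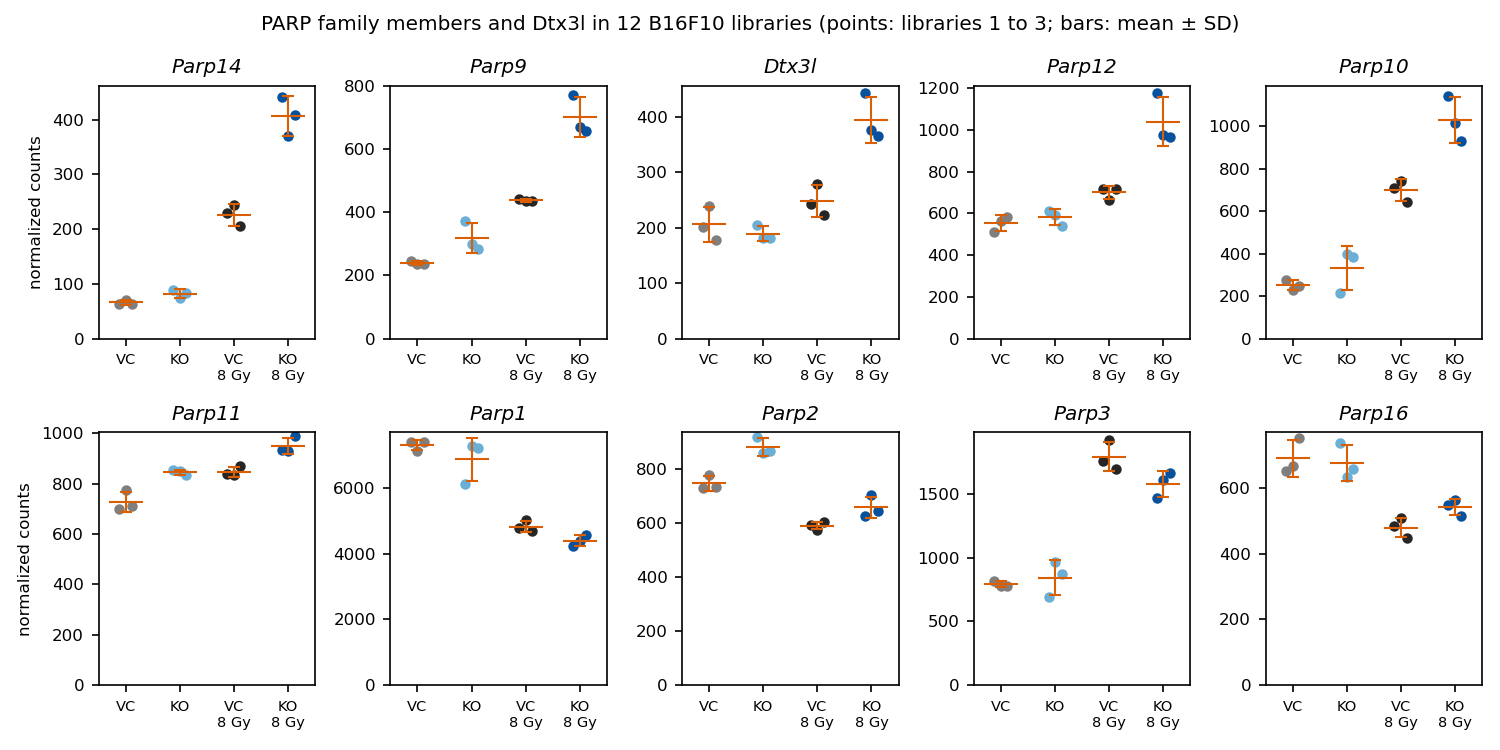
Normalized read counts (vertical axes, each from 0) of the 10 members in the 4 groups, where VC is vector control and KO is Bub1KO. Points are libraries 1 to 3 from left to right and bars are mean ± SD; the 3 irradiated Bub1KO libraries of Parp14 sit between 370.1 and 442, above all 9 other libraries.

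Levels can be compared between genes only per length of transcript, as RPKM (reads scaled to the length of annotated exons and to the library's reads in genes). In untreated VC, Parp1 had 55.0 ± 1.30 RPKM (SD, n = 3), apart from all other members. Parp3 at 8.52 ± 0.380 RPKM and Parp2 at 8.18 ± 0.353 RPKM overlapped in range. Below them came Parp16 at 7.07, Parp12 at 5.49, Parp11 at 4.12, Parp10 at 2.34, Parp9 at 1.96, Dtx3l at 1.44 and Parp14 at 0.282 RPKM, each apart from the next. The interferon-linked members were therefore the 6 lowest of the 10 before treatment. In irradiated Bub1KO the order was Parp1 at 35.1, Parp3 at 18.1, Parp12 at 11.0, Parp10 at 10.2 and Parp2 at 7.65 RPKM. Parp12 and Parp10 overlapped there, as did Parp9 at 6.09, Parp16 at 5.91 and Parp11 at 5.72 RPKM. Dtx3l at 2.92 and Parp14 at 1.85 RPKM stayed the lowest 2.

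Promoter windows of 300 bases (250 before and 50 after a start site) were available from RefSeq on GRCm38.p6 for 7 of the 10 members, and Parp9, Parp10 and Parp14 had no entry. The 2 short letter patterns searched are ones that interferon-activated factors are known to bind: GAAA, any 2 bases and GAAA, and TTC, any 3 bases and GAA. Both strands were read. The first stood in 3.44% of all 32851 windows, or in a window of 3.99% of the 27025 genes, and in 1 of the 7 members, Parp11. Its match reads TTTCGATTTC, which is the pattern on the opposite strand, at chr6:127446796-127446805 and spans positions -44 to -35, where -1 is the last base before the start. The second stood in 8.30% of all windows, or in 9.55% of genes, and in Parp11 and Parp16. In Parp11 it reads TTCTTGGAA at chr6:127446803-127446811 and shares 3 bases with the first match. In a list of interferon-stimulated genes used for comparison, 11 of 24 genes with a window held the first pattern. The 250 bases before the start are shown for Parp11, the member with both patterns, for Parp12, an interferon-linked member without either, and for Parp1, the most abundant member. Capitals mark the first pattern, and each runs in the direction of transcription.
Parp11, chr6:127446590-127446839, plus strand: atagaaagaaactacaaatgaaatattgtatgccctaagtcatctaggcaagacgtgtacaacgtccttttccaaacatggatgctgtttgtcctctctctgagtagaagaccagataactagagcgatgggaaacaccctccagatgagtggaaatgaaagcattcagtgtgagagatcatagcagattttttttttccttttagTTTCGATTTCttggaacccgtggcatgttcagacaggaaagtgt
Parp12, chr6:39118350-39118599, minus strand: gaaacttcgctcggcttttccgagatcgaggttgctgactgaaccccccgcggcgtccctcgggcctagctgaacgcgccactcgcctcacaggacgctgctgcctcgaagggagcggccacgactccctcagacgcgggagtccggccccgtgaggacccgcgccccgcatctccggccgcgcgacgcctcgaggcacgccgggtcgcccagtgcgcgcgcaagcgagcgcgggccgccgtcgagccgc
Parp1, chr1:180568641-180568890, plus strand: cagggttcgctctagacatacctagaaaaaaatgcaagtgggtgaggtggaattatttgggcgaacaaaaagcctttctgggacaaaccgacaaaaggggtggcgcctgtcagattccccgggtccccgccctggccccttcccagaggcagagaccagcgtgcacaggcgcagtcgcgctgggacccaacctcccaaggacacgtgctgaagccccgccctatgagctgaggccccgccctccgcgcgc
The GC content of these stretches was 40.4% for Parp11, 73.6% for Parp12 and 61.6% for Parp1. A match describes letters only, and the absence of a match says only that they are not in this window.

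Parp14 carries macrodomains that read ADP-ribose beside its transferase domain, and it had the largest log2 differences of the members after 8 Gy. Its gene lies at chr16:35832874-35871544 (GRCm38, minus strand). Untreated VC libraries had 63.8, 70.9 and 63.0 normalized counts, and untreated Bub1KO libraries had 89.4, 73.2 and 83.2. After 8 Gy VC had 229, 243 and 205, whereas Bub1KO had 442, 370.1 and 409. No 2 of the 4 groups overlapped. The 8 Gy minus untreated difference was 1.76 on the log2 scale in VC (SE 0.122, limma adjusted p = 1.08e-07) and 2.30 in Bub1KO (SE 0.122, limma adjusted p = 1.02e-08). Between genotypes it was 0.31 untreated (SE 0.162, limma adjusted p = 0.348) and 0.85 after 8 Gy (SE 0.101, limma adjusted p = 6.33e-05).

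Parp9 and Dtx3l encode partners in a complex that joins ADP-ribose reading to ubiquitin transfer. Their genes stand head to head on chromosome 16, Parp9 at chr16:35938470-35972605 on the plus strand and Dtx3l at chr16:35926511-35939151 on the minus strand. They overlap by 682 bases, of which 458 are exon in both, 9.40% of the exon bases of Parp9 and 8.0% of those of Dtx3l. Whether counting used strand is not given in the sources used here, so reads in the shared stretch cannot be told apart. Parp9 had 245, 236 and 237 normalized counts in untreated VC, against 374, 301 and 284 in untreated Bub1KO. After 8 Gy it had 443, 435 and 438 in VC and 774, 670.4 and 659.7 in Bub1KO. The 4 groups of Parp9 did not overlap. In untreated cells Dtx3l had 201, 239.9 and 178 in VC, against 205, 182 and 181 in Bub1KO, and irradiated VC had 243, 279 and 223. It had 443, 377 and 366 in irradiated Bub1KO, the sole group of Dtx3l that overlapped no other.

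The partners thus differed in which groups stood apart. Parp9 rose after 8 Gy in VC by 0.87 on the log2 scale (SE 0.106, limma adjusted p = 1.47e-05), whereas the difference for Dtx3l was 0.27 (SE 0.130, limma adjusted p = 0.0948). In Bub1KO, Parp9 rose by 1.14 (SE 0.106, limma adjusted p = 1.39e-06) and Dtx3l by 1.05 (SE 0.130, limma adjusted p = 1.70e-05). After 8 Gy both were 0.67 higher in Bub1KO on the log2 scale (Parp9 SE 0.0809, limma adjusted p = 6.73e-05; Dtx3l SE 0.108, limma adjusted p = 0.00057). The difference for Dtx3l in VC passed in 1 of 12 alternatives, without replicate 2 of untreated VC (0.38, limma adjusted p = 0.0295, within a range of 0.0295 to 0.324).

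The ratio of Parp9 to Dtx3l normalized counts was 1.22, 0.984 and 1.33 in untreated VC. It was 1.82, 1.66 and 1.57 in untreated Bub1KO, 1.82, 1.56 and 1.96 in VC after 8 Gy and 1.75, 1.78 and 1.80 in Bub1KO after 8 Gy. Untreated VC had the 3 lowest of the 12 ratios, and the other groups overlapped one another. Its mean ratio of 1.18 ± 0.178 (SD, n = 3) compared with 1.68 ± 0.128 in untreated Bub1KO and 1.78 ± 0.204 in irradiated VC. For both comparisons the two-sided exact permutation p was 0.10, the smallest that 3 against 3 libraries can give, so the design cannot pass a threshold of 0.05. After 8 Gy the genotypes had mean ratios of 1.78 each (two-sided exact permutation p = 1.0).

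**Figure D2:**
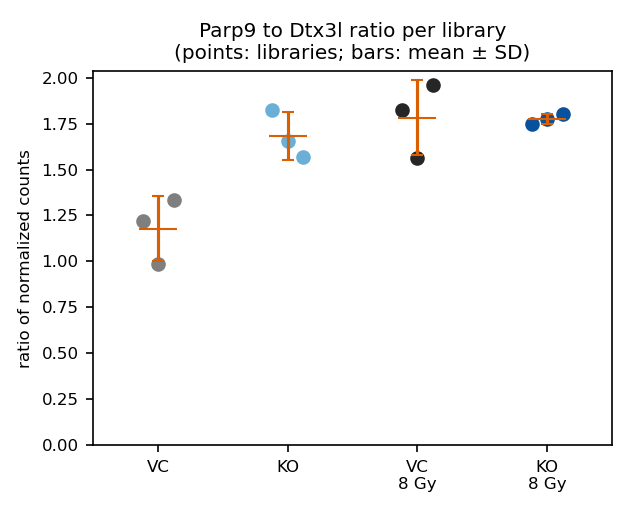
Ratio of Parp9 to Dtx3l normalized counts (vertical axis, no unit) in each library of the 4 groups, with mean ± SD as bars. The untreated VC libraries lie between 0.984 and 1.33, and the 9 others between 1.56 and 1.96.

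Parp14 lies 54966 bases from Dtx3l, so that 3 of the 10 members fall within 139.7 kb. Hspbap1, next to Parp14, and Kpna1, beyond Parp9, passed no test in any of the 5 comparisons. Farther out, Fam162a was higher in irradiated Bub1KO, with a mean of 4698 normalized counts, than in irradiated VC, with 2336 (limma adjusted p = 2.76e-06), and rose by 0.55 after 8 Gy in Bub1KO (limma adjusted p = 0.0129). Slc49a4 and Ccdc58 were each 0.24 higher in irradiated Bub1KO than in irradiated VC (limma adjusted p = 0.0135 and 0.0220). After 8 Gy, Ccdc58 fell by 0.38 in VC, and Wdr5b fell by 0.34 in VC and by 0.41 in Bub1KO. These 4 genes, the other tested ones within 100 kb of the stretch, were named after their values were seen. Gm15564, a noncoding gene antisense to the end of Parp9, had a mean of 199 normalized counts in VC after 8 Gy and 146 in Bub1KO after 8 Gy. It fell by 1.43 on the log2 scale after 8 Gy in Bub1KO (limma adjusted p = 0.00032), where Parp9 rose.

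Parp10 is a transferase that adds single ADP-ribose units, and Parp12, another, carries RNA-binding zinc fingers. Parp10 (chr15:76231174-76243441, minus strand) had 277, 231 and 246 normalized counts in untreated VC, against 712, 743 and 642 in irradiated VC. In Bub1KO it had 214, 401 and 385 untreated and 1144, 1016 and 931 after 8 Gy. Its low value of 214 belongs to the library that stood apart. Parp10 rose after 8 Gy by 1.47 on the log2 scale in VC (SE 0.186, limma adjusted p = 2.01e-05) and by 1.67 in Bub1KO (SE 0.186, limma adjusted p = 6.79e-06), or by 1.38 without that library. Irradiated Bub1KO exceeded irradiated VC by 0.56 (SE 0.0861, limma adjusted p = 0.00043). This last call was lost when the spread was taken from all 12 libraries (limma adjusted p = 0.0619, in a range of 0.0001 to 0.0619 over 12 alternatives). The end of Parp10 shares 205 exon bases, 4.80% of its own, with Plec on the same strand. After 8 Gy Plec also rose, by 1.32 in VC (limma adjusted p = 0.00039) and by 0.74 in Bub1KO (limma adjusted p = 0.0188), but its difference between irradiated Bub1KO and irradiated VC was -0.38 (limma adjusted p = 0.0153). Grina, the neighbour on the other side, rose by 0.91 in VC and by 1.14 in Bub1KO, and was 0.52 higher in irradiated Bub1KO than in irradiated VC (limma adjusted p = 0.00018).

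Parp12 (chr6:39086410-39118349, minus strand) overlapped between genotypes without radiation and stood apart after it. It had 509.7, 564 and 582 normalized counts in untreated VC, against 613, 591 and 541 in untreated Bub1KO, which overlap. After 8 Gy it had 717, 664 and 718 in VC and 1176, 974 and 967 in Bub1KO, apart from each other and from the untreated libraries. Parp12 rose after 8 Gy by 0.34 on the log2 scale in VC (SE 0.0943, limma adjusted p = 0.00737) and by 0.83 in Bub1KO (SE 0.0943, limma adjusted p = 8.05e-06). The genotype difference after 8 Gy was 0.57 (SE 0.0836, limma adjusted p = 0.00032). Whether that exceeded the untreated difference did not pass the test on all 12 libraries (0.49, limma adjusted p = 0.139).

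Parp11, a transferase of the nuclear envelope whose window held both letter patterns, had the smallest log2 differences after 8 Gy of the interferon-linked members. It lies at chr6:127446840-127494261 on the plus strand. It had 699, 774 and 711 normalized counts in untreated VC, against 854, 849.8 and 834 in untreated Bub1KO, then 837, 834 and 871 in VC after 8 Gy and 934, 929 and 988 in Bub1KO after 8 Gy. Untreated VC was the lowest group and irradiated Bub1KO the highest, with the other 2 overlapping between them. The rise after 8 Gy in VC was 0.22 on the log2 scale (SE 0.0700, limma adjusted p = 0.0166). It was lost without replicate 1 of untreated VC (limma adjusted p = 0.0661) or replicate 3 of irradiated VC (0.0616), in a range of 0.0114 to 0.0661. In Bub1KO the difference was 0.17 (SE 0.0700, limma adjusted p = 0.0616), and it passed in 1 of 12 alternatives, edgeR (adjusted p = 0.0358, range 0.0358 to 0.167).

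Parp1, the main enzyme of break-induced ADP-ribose chains, fell in both genotypes. It lies at chr1:180568924-180601254 on the plus strand. It had 7407, 7133 and 7401 normalized counts in untreated VC, against 6121, 7278 and 7228 in untreated Bub1KO. After 8 Gy it had 4772, 5018 and 4691 in VC and 4237, 4376 and 4565 in Bub1KO. Every irradiated library was below every untreated one, by 34.0% of the mean in VC and 36.1% in Bub1KO. On the log2 scale the differences were -0.60 (SE 0.0735, limma adjusted p = 1.56e-05) and -0.64 (SE 0.0735, limma adjusted p = 8.71e-06).

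Parp2, which shares the chain-building role, lies at chr14:50807841-50821301 on the plus strand. It had 729, 777 and 731 normalized counts in untreated VC, against 591, 575 and 602 after 8 Gy. In Bub1KO it had 917, 856 and 867 untreated and 626, 702 and 643 after 8 Gy. No 2 of the 4 groups overlapped, and Bub1KO was the higher genotype under both treatments. The fall after 8 Gy was -0.34 on the log2 scale in VC (SE 0.0742, limma adjusted p = 0.00167) and -0.42 in Bub1KO (SE 0.0742, limma adjusted p = 0.00035). The genotype differences of 0.24 untreated (SE 0.0915, limma adjusted p = 0.195) and 0.16 after 8 Gy (SE 0.0740, limma adjusted p = 0.130) did not pass.

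Parp3 moved opposite to the other DNA-break enzymes. It lies at chr9:106470322-106476949 on the minus strand. It had 819.7, 779 and 776 normalized counts in untreated VC, against 1759.8, 1922 and 1700.0 after 8 Gy. In Bub1KO it had 691, 962 and 869.8 untreated and 1468, 1607 and 1668 after 8 Gy. All 6 irradiated libraries were above all 6 untreated ones, and irradiated Bub1KO lay below irradiated VC. Parp3 rose by 1.18 on the log2 scale in VC (SE 0.106, limma adjusted p = 1.03e-06) and by 0.92 in Bub1KO (SE 0.106, limma adjusted p = 9.24e-06), or by 0.79 without the library that stood apart.

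Parp16, at chr9:65195353-65239224 on the plus strand, fell with Parp1 and Parp2. It had 651, 667 and 755 normalized counts in untreated VC, against 739, 634 and 659 in untreated Bub1KO, then 484, 508 and 448 in VC after 8 Gy and 548, 565 and 517 in Bub1KO after 8 Gy. Both irradiated groups were below both untreated groups, which overlapped. The fall was -0.52 on the log2 scale in VC (SE 0.0907, limma adjusted p = 0.00029) and -0.32 in Bub1KO (SE 0.0907, limma adjusted p = 0.0104).

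**Figure D3:**
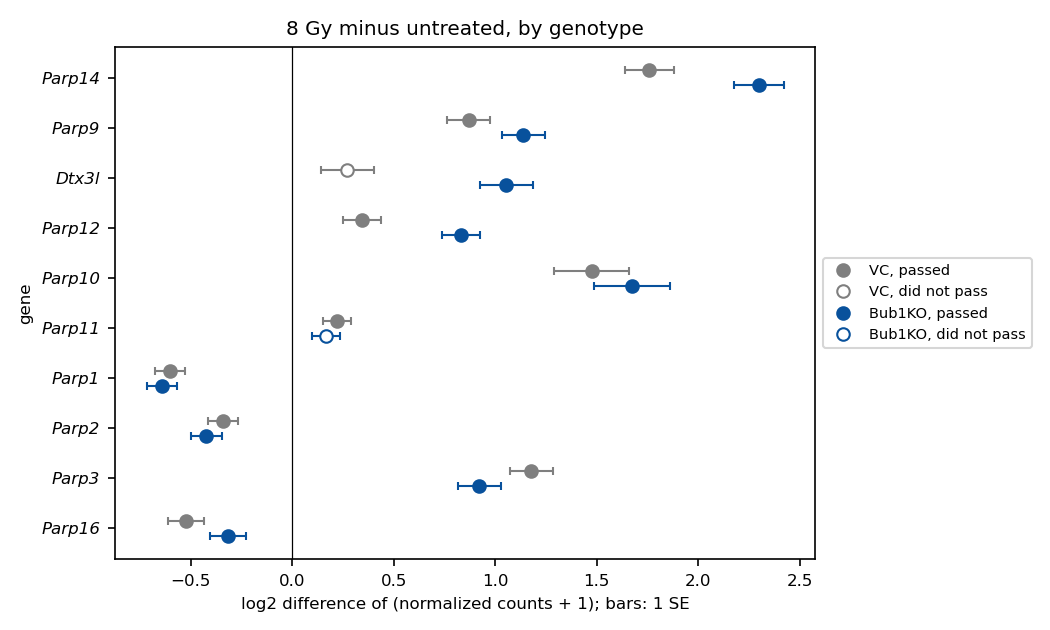
Difference of 8 Gy minus untreated (horizontal axis, log2 of normalized counts + 1) for each member in VC and Bub1KO, with 1 SE as bars and filled points past an adjusted p of 0.05. Parp14 has the largest differences, 1.76 and 2.30, and Parp1, Parp2 and Parp16 lie below 0 in both genotypes.

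Radiation was the larger contrast for all genes as well. In VC, 6 members rose, 3 fell and 1 did not pass, where 53.4% of all genes tested passed. In Bub1KO, 6 rose, 3 fell and 1 did not pass, against 49.4% of all genes. The median log2 difference of the 10 members was 0.31 in VC and 0.88 in Bub1KO, beside 0.017 and 0.028 over all genes tested. Without the untreated Bub1KO library that stood apart, the differences in Bub1KO were 2.36 for Parp14, 1.25 for Parp9, 1.11 for Dtx3l, 0.87 for Parp12 and 0.17 for Parp11. They were -0.72 for Parp1, -0.39 for Parp2 and -0.25 for Parp16, and the same 9 of 10 members passed. The irradiated and untreated groups also enter the genotype comparisons, so the 4 comparisons share libraries.

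Between genotypes after 8 Gy, 5 members were higher in Bub1KO and none lower, where 30.7% of all genes passed, 14.3% as higher and 16.4% as lower. All 5 were interferon-linked: Parp14, Parp9, Dtx3l, Parp12 and Parp10. The 5 that did not pass were Parp16 (0.18, limma adjusted p = 0.109), Parp11 (0.17, 0.0710), Parp2 (0.16, 0.130), Parp1 (-0.14, 0.0795) and Parp3 (-0.18, 0.0625). Ranges did not overlap for any of the 10 members. The share of all genes with ranges apart was not counted, so this alone marks no difference. Parp1 and Parp3 passed as lower in 1 of 12 alternatives, without replicate 3 of irradiated Bub1KO (limma adjusted p = 0.0435, range to 0.278, and 0.0359, range to 0.293). Replicate 1 of irradiated Bub1KO held the highest value of its group for all 5 members that passed. Over the 12 alternatives, each of which left out 1 library or changed 1 setting, the log2 differences stayed between 0.78 and 0.91 for Parp14, 0.60 and 0.71 for Parp9, and 0.58 and 0.75 for Dtx3l. They stayed between 0.47 and 0.61 for Parp12 and between 0.48 and 0.63 for Parp10. The members' median was 0.37, beside -0.0055 over all genes.

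**Figure D4:**
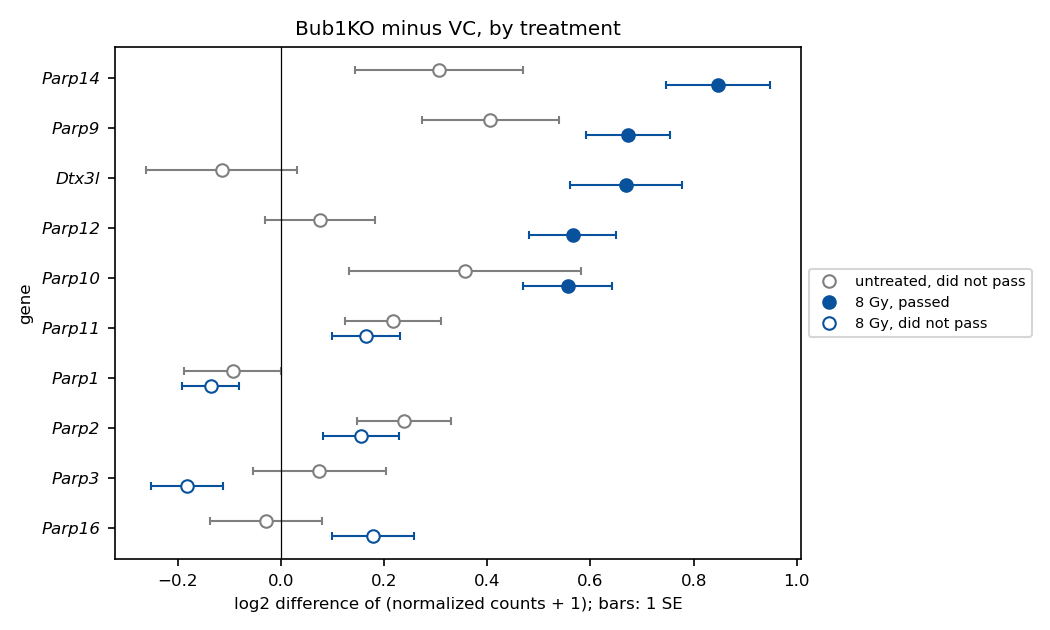
Difference of Bub1KO minus VC (horizontal axis, log2 of normalized counts + 1) for each member, untreated and after 8 Gy, with 1 SE as bars and filled points past an adjusted p of 0.05. The 5 filled points, all after 8 Gy, lie between 0.56 and 0.85, and no untreated point is filled.

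Markers of other cells moved with these results. The summed normalized counts of 8 leukocyte and macrophage markers were 36.1 to 38.1 in untreated VC, 33.7 to 34.8 in untreated Bub1KO, 201 to 231 in VC after 8 Gy and 317 to 328 in Bub1KO after 8 Gy. Cd3e and Adgre1 were at 0 in all 12 libraries, and Ptprc and Itgam were at 0 in all 3 irradiated Bub1KO libraries. Cd68, Lyz2 and Cd79a, the 3 markers that reached the filter of 10 normalized counts in 3 or more libraries, rose after 8 Gy in both genotypes. Cd79a was under 10 in every untreated library and was tested only through irradiated ones, so its rise was in large part set by the filter. In untreated VC, 7 of the 8 markers were under 10 in all 3 libraries. Of the 3 tested, Cd68 alone passed between the irradiated genotypes. The 8 fibroblast and endothelial markers summed to 110 to 161 in untreated VC and 86.4 to 118 in untreated Bub1KO. After 8 Gy the sums were lower, at 88.2 to 95.3 in VC and 75.3 to 82.9 in Bub1KO. The 2 markers tested moved in opposite directions, as Pdgfra fell and Col1a1 rose after 8 Gy in both genotypes. In each untreated group 7 of the 8 were under 10 normalized counts in all 3 libraries. The 6 keratinocyte and epithelial markers summed to 57.2 to 78.7 in untreated VC and 74.8 to 96.6 in untreated Bub1KO. After 8 Gy they summed to 77.2 to 102 in VC and 122 to 133 in Bub1KO. The part of all these markers in the members' differences was not tested.

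Without radiation, 0 of 10 members passed between genotypes by limma, where 4.01% of all genes passed, 2.31% as higher and 1.71% as lower. Of the members, 3 had an unadjusted limma p under 0.05, as did 2817 of the 14721 genes tested. The 3 members were Parp9 (0.41, SE 0.133, limma adjusted p = 0.136), Parp2 (0.24) and Parp11 (0.22). DESeq2 on the recovered reads called these 3 as higher in Bub1KO, with adjusted p of 0.0133, 0.0363 and 0.0475. edgeR called Parp9 alone (adjusted p = 0.0289), as did limma with the spread of all 12 libraries (0.0235). Over 12 alternatives the adjusted p of Parp9 ran from 0.0133 to 0.331. The authors' deposited table has the same 3 genes below an adjusted p of 0.05, at 0.0130 for Parp9, 0.0354 for Parp2 and 0.0464 for Parp11. Its log2 differences and SE for these 3 equal those of DESeq2 here, apart from the direction of the comparison, so its calls are not separate support. Ranges did not overlap for Parp9, Parp2, Parp11 and Parp14. Here too the share of all genes with ranges apart was not counted, so this alone marks no difference. Parp10 differed by 0.36 (SE 0.225, limma adjusted p = 0.436). Without the library that stood apart, Parp10 was the single member to pass (0.65, SE 0.116, limma adjusted p = 0.0039, in a range of 0.0039 to 0.735), where 18.6% of all genes then passed. The others were then 0.29 for Parp9, 0.24 for Parp14, 0.21 each for Parp2, Parp3 and Parp11, 0.037 for Parp12, -0.012 for Parp1, -0.093 for Parp16 and -0.17 for Dtx3l.

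That library's values followed GC content in part of the members. In it Parp10, at 56.3% GC the most GC-rich of the 10, was 0.87 lower on the log2 scale than the mean of replicates 2 and 3. Parp3 (55.0% GC) was 0.40 lower and Parp1 (53.0% GC) 0.24 lower. Parp9 (47.2% GC) was 0.35 higher, and Parp16, at 54.0% GC, was 0.19 higher.

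**Figure D5:**
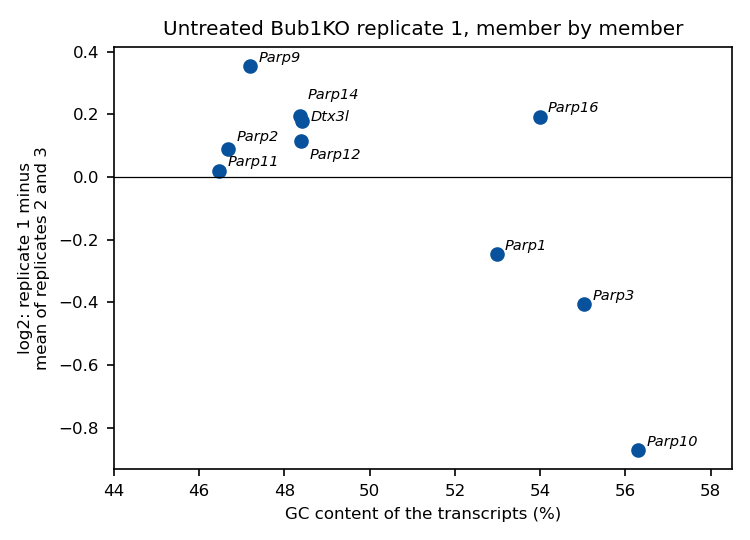
Log2 value of each member in replicate 1 of untreated Bub1KO minus the mean of replicates 2 and 3 (vertical axis), against the mean GC content of its annotated transcripts in percent (horizontal axis). Each point is a gene; Parp10, Parp3 and Parp1 lie below 0 and the 7 others above.

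Whether the genotype difference itself changed with radiation was tested as an interaction, on all 12 libraries. None of the 10 members passed by limma, where 0.550% of all genes passed, 0.136% as higher and 0.414% as lower. Of the members, 3 had an unadjusted limma p under 0.05, as did 1784 of the 14721 genes tested. The 3 members were Dtx3l (0.78, SE 0.184, limma adjusted p = 0.0902), Parp14 (0.54, SE 0.172, limma adjusted p = 0.211) and Parp12 (0.49, SE 0.133, limma adjusted p = 0.139). Without the untreated Bub1KO library that stood apart, 4 members passed, where 9.83% of all genes then passed. Dtx3l (0.84, limma adjusted p = 0.0082), Parp14 (0.60, 0.0372) and Parp12 (0.53, 0.0161) had larger genotype differences after 8 Gy, whereas for Parp3 (-0.39, 0.0279) the difference was lower after 8 Gy than before. On all 12 libraries edgeR called none of the 10 and DESeq2 called Dtx3l alone (adjusted p = 0.0116). Adjusted p over the 17 alternatives ran from 0.0082 to 0.235 for Dtx3l, 0.0372 to 0.425 for Parp14, 0.0161 to 0.341 for Parp12 and 0.0279 to 0.826 for Parp3. For Parp9 the interaction was 0.27 (SE 0.150, limma adjusted p = 0.509), and for Parp10 it was 0.20 (SE 0.263, limma adjusted p = 0.824) and -0.092 without that library.

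Of 7 other PARP family genes tested, 1 passed between genotypes. This was Parp6, higher in Bub1KO untreated (0.69, limma adjusted p = 0.0091) and after 8 Gy (1.05, limma adjusted p = 9.73e-07). Its values were 424, 388 and 449.8 normalized counts in untreated VC, against 729.8, 647 and 657 in untreated Bub1KO, with no overlap. The untreated call was lost without replicate 1 or 2 of untreated VC (limma adjusted p = 0.0619 and 0.0603). After 8 Gy in VC, Parp4 of the vault particle rose by 0.58, Parp8 rose by 0.60 and Zc3hav1, an antiviral zinc-finger protein, fell by 0.35. In Bub1KO 3 of the 7 rose and 1 fell, with Parp6 (0.40), Parp4 (0.44) and Zc3hav1 (-0.26) having the smallest p. Of 3 other deltex genes tested, Dtx3 rose after 8 Gy in VC (0.56) and in Bub1KO (0.44), and Dtx2 was lower in irradiated Bub1KO than in irradiated VC (-0.71, limma adjusted p = 0.00048).

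Of 11 genes tested that read or remove ADP-ribose, 2 rose and 5 fell after 8 Gy in VC, where 27.6% of all genes rose and 25.8% fell. In Bub1KO 1 rose and 7 fell, where 25.4% of all genes rose and 23.9% fell. The list's medians were -0.19 and -0.30 on the log2 scale, beside 0.017 and 0.028 over all genes, and a difference from other genes was not tested. H2afy, a macrodomain histone, fell by 0.89 in VC and by 0.63 in Bub1KO. Chd1l, a remodeler recruited by ADP-ribose chains, fell by 0.50 and 0.39. Between genotypes none passed untreated. After 8 Gy, 2 were higher in Bub1KO and 1 lower: Parg, which cleaves the chains, was lower (-0.27, limma adjusted p = 0.0051), and Oard1 (0.24) and Macrod1 (0.41) were higher, which passed in 5 and 4 of 12 alternatives.

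Of 20 repair genes tested that act with Parp1 on nicks and damaged bases, 6 rose and 9 fell after 8 Gy in VC, and 4 rose and 11 fell in Bub1KO, against the same shares of all genes. Their medians were -0.35 and -0.33, and here too a difference from other genes was not tested. The ligase gene Lig1 fell by 1.07 in VC and by 1.02 in Bub1KO. Apex1, which cuts at lost bases, fell by 0.73 and 0.82, and the flap nuclease gene Fen1 fell by 0.91 in Bub1KO. The glycosylase gene Neil2 rose by 0.97 in VC. No gene of the list passed between genotypes untreated. After 8 Gy, 3 were higher in Bub1KO and 2 lower, led by Tdp1 (0.51, limma adjusted p = 0.00031) and Fen1 (-0.35, limma adjusted p = 0.00092).

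Most interferon-stimulated genes outside the family moved in the direction of Parp14 and Parp9 after 8 Gy. Of 31 listed, 24 reached 10 normalized counts in 3 or more libraries and were tested. Of these, 20 rose and none fell after 8 Gy in VC, and 22 rose and none fell in Bub1KO, with medians of 1.51 and 2.31. Over all genes tested, 27.6% rose in VC and 25.4% in Bub1KO. Oas2, Oasl1 and Oasl2 reached that filter only through irradiated libraries, so their rises were in large part set by it. Isg15, a ubiquitin-like modifier, had 25.7, 20.6 and 20.2 normalized counts in untreated VC, against 485, 454 and 439.8 in irradiated VC. After 8 Gy, 21 of 24 were higher in Bub1KO and none lower, with a median of 0.92, where 14.3% of all genes passed as higher. They were led by Ifi27 (1.23, limma adjusted p = 2.08e-08), the RNA sensor gene Ddx58 (1.01) and Rsad2 (1.34). Oas2, among the 21, reached the filter through irradiated Bub1KO alone. Untreated, 6 were higher and none lower, where 2.31% of all genes passed as higher. They were led by Ifi27 (0.78, limma adjusted p = 0.0044). The next in order of p, Isg15 and Samd9l, passed in 9 and 8 of 12 alternatives, with adjusted p up to 0.0668 and 0.0854. Of 10 interferon signalling genes tested, 5 rose in VC and 7 in Bub1KO after 8 Gy. Between the irradiated genotypes 7 were higher in Bub1KO, and none was lower in any of the 3 comparisons, against the same shares of all genes. Irf7 and Usp18 among them reached the filter only through irradiated libraries. Irf9, a subunit of the main interferon-activated factor, rose by 1.34 in VC and by 2.04 in Bub1KO.

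Likeness of pattern was measured as the root mean square difference between 2 genes' log2 values over the 12 libraries, each centred on its own mean, as a description. The gene nearest to Parp9 was Fam229b (0.106), followed by Trnp1, Agtrap, Zcwpw1 and Gm48957. Dtx3l ranked 324 for likeness to Parp9 (0.279) and Parp12 ranked 220. The DNA-break enzyme Parp3 ranked 1176, ahead of Parp10 (1568), Parp11 (2427) and Parp14 (3772). Nearest to Parp14 were Ifitm3 (0.172), Ifih1, Gbp7, Ndrg4 and Selenop, with Parp10 at rank 130 and Parp9 at rank 490. Parp3, at rank 1025, was again ahead of some interferon-linked members, Dtx3l (1451), Parp12 (1709) and Parp11 (4365). Nearest to Parp1 were Pola2 (0.0589), Tdg, Ccnf, Erh and Chaf1a.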

How the data were processed

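Total RNA was sequenced from 12 libraries, prepared with a stranded, rRNA-depleting kit per the labels' protocols. The submitters' processing notes name Trim Galore, cutadapt, STAR, SAMtools, HTSeq and GRCm38.p6 (mm10), with no versions. The deposited values are a signal: the authors divided gene read counts by 1 size factor per library, from 0.775 to 1.41. Multiplying back gave whole reads, within 0.01 of a read, for 100.0% of values. The authors' deposited log2 fold changes, p-values and test score (VC over Bub1KO) were used only for comparison.

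limma 3.58.1 (trend, R 4.3.3) was fitted to log2(value + 1) of the 14721 genes that reached 10 in 3 or more libraries, with Benjamini-Hochberg adjustment over all of them at 0.05. Differences are on that scale, which understates changes of low genes. Genotype comparisons used their own 6 libraries, and radiation effects and the interaction used all 12. Radiation comparisons span both tables, which share 1 normalization. Alternatives were a pseudocount of 5, no filter, a replicate block, another set of libraries in the fit, leaving out each library, and edgeR 4.0.16 with TMM and DESeq2 1.42.0 on recovered reads. The fit was tested on simulated data. RPKM, GC content, positions and overlaps used GENCODE M21 exons, to which 55240 of 55421 identifiers matched.

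All members were named whatever their p. Of other lists at most the 3 genes with the smallest p were named per comparison. For likeness the 5 nearest genes were named. For position the nearest tested neighbours were named for the chromosome 16 members and Parp10. Those of the other members were looked up but are not described here. The members and lists were chosen with earlier results of these data known.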

Additional observations from a re-analysis of the deposited data

Results flagged for a closer look

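Of the interferon-stimulated and marker genes set beside the members, 2 had a genotype difference that changed with radiation. The interaction of Dhx58, a relative of the RNA sensor Ddx58, was 2.09 on the log2 scale (SE 0.237, limma adjusted p = 0.0012). It had 58.8, 60.6 and 60.5 normalized counts in untreated VC, against 27.4, 42.0 and 34.8 in untreated Bub1KO, 127, 112 and 112 in VC after 8 Gy and 345, 286 and 242 in Bub1KO after 8 Gy, so that Bub1KO was the lower genotype before and the higher after 8 Gy. The interaction of Cd68, a macrophage marker, was 1.24 (SE 0.213, limma adjusted p = 0.0172). It passed in some alternatives and was lost without any of 6 single libraries, at adjusted p of 0.0501 to 0.0706.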

How the results depend on the processing

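Counts over all genes depended on the fit. Between genotypes untreated, 591 genes passed, and 329 with no filter, 312 with the replicate block, 1769 with all 12 libraries in the fit, 1744 with edgeR, 1831 with DESeq2 and 172 to 2736 leaving out 1 library, the highest without replicate 1 of untreated Bub1KO. After 8 Gy, 4512 passed, and 2062 with no filter, 2105 with all 12 libraries, 2439 with edgeR, 2539 with DESeq2 and 3045 to 4744 leaving out 1 library. For radiation, leaving out 1 library gave 6733 to 7120 genes in VC (7861 in the fit reported) and 6141 to 7567 in Bub1KO (7269). For the interaction, 81 passed, and 47 with the replicate block, 275 with DESeq2 and 33 to 1447 leaving out 1 library, the highest again without that replicate 1. Of the 10 members, untreated 0 passed, and 1 with all 12 libraries, 1 with edgeR, 3 with DESeq2 and 0 to 1 leaving out 1 library. After 8 Gy 5 passed, and 4 with all 12 libraries and 5 to 7 leaving out 1. For radiation 9 passed in each genotype, and 8 to 10 in VC and 9 in Bub1KO leaving out 1, and 10 in Bub1KO with edgeR. For the interaction 0 passed, and 1 with DESeq2 and 0 to 4 leaving out 1. The cause of these shifts was not tested.

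Differences that changed sign were all of members that did not pass, with 1 library left out. Untreated, Parp3 ran from -0.030 (without replicate 2 of Bub1KO) to 0.21, and Parp16 from -0.093 to 0.036 (without replicate 3 of VC), with 0.017 without replicate 2 of Bub1KO. The interaction of Parp1 ran from -0.12 to 0.00066 (without replicate 2 of untreated Bub1KO), and that of Parp10 from -0.092 (without replicate 1 of untreated Bub1KO) to 0.36. Libraries with the same number did not deviate together (correlations of -0.19 to 0.20). These correlations cannot settle whether such libraries shared a culture or batch, and the fit reported took them as unpaired. The replicate block changed no call of a member. Depth limits Parp14 most, with 63.0 to 89.4 normalized counts untreated.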
